A study of Mus musculus with 6 samples.

Results

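Genes of fatty acid synthesis and desaturation were followed in cultures labelled as fibroblasts of the mouse mammary fat pad. The group was defined by gene symbol and holds Acly, Acaca, Fasn, Elovl6, Scd1, Scd2, Fads1, Fads2 and Srebf1. All 9 were found among the 12023 genes of the count table, and 8 passed the filter on low counts, Fasn being the exception. The cells came from healthy BALB/c females, with 3 biological replicates, and healthy C57BL/6 females, with 3 biological replicates, all 8 to 12 weeks old. They were primary isolates that had gone through a magnetic separation, whose target the sources used here do not give, and through 4 days of culture on plates coated with collagen, so neither strain is a clonal line or a picture of the intact tissue. The libraries read the 3′ ends of polyadenylated RNA, and total counts ran from 1035485 to 4665896 per library. The stated aim of the comparison was the baseline difference between the strains.

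Cells make fatty acids from citrate that leaves the mitochondria. ATP citrate lyase (Acly) splits it into acetyl-CoA, acetyl-CoA carboxylase (Acaca) turns that into malonyl-CoA, and fatty acid synthase (Fasn) joins these units into palmitate, which Elovl6 lengthens to stearate. The stearoyl-CoA desaturases Scd1 and Scd2 place a double bond in the saturated chains to give oleate and palmitoleate, and Fads1 and Fads2 desaturate the polyunsaturated acids taken from the diet. Srebf1 encodes SREBP-1, the sterol regulatory element binding protein that switches many of these genes on. The mammary fat pad is rich in adipocytes, which use the pathway to store fat, and the lactating epithelium uses it to make milk fat. Cultured fibroblasts need it for membranes.

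None of the 8 tested genes differed between the strains at an adjusted p under 0.05 in edgeR's quasi-likelihood test, where 0.206% of the 8752 tested genes did. DESeq2, limma-voom and limma-voom with library quality weights also called 0 of the 8. At an unadjusted p under 0.05 edgeR took 2 of the 8, Fads1 and Fads2, beside 3.86% of all tested genes. That count was 1 without C57BL/6 replicate 1, beside 5.01% of all tested genes in that fit. It was 0 without BALB/c replicate 1 (2.99% of all), BALB/c replicate 3 (2.47%) or C57BL/6 replicate 3 (2.90%). It stayed at 2 without BALB/c replicate 2 (2.28%) or C57BL/6 replicate 2 (6.59%). The fitted log2 difference, BALB/c minus C57BL/6, was above 0 for 7 of the 8, beside 51.1% of all tested genes, with a median of 0.61 beside 0.01 for all tested genes. Without C57BL/6 replicate 1 it was above 0 for 6 of the 8 and the median was 0.33, and without C57BL/6 replicate 2 the median was 1.02. C57BL/6 replicate 1 lay apart from the rest, with a mean correlation of 0.779 with the other 5 across genes, where the others had 0.870 to 0.910. Values without it are given beside those of the members it moved most.

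The genes lie on chromosomes 3, 11 and 19 of GRCm38, the assembly also called mm10. Scd2, at chromosome 19, 44293674 to 44306864, and Scd1, at chromosome 19, 44394455 to 44407879, are neighbours, as are Fads2, at chromosome 19, 10062765 to 10101746, and Fads1, at chromosome 19, 10182888 to 10196877. Chromosome 11 carries Srebf1 at 60199089 to 60222581, Acaca at 84129672 to 84401651, Acly at 100476353 to 100528000 and Fasn at 120805846 to 120824547. Elovl6 is at chromosome 3, 129532355 to 129638495. All 9 are annotated as protein-coding in GENCODE vM21. In 8 of the 9 the last 500 nt of the transcript had no match of at least 95% identity over at least 60 nt in the transcripts of another gene, so Scd1 and Scd2, related as their proteins are, can be told apart at the 3′ end. The exception is Srebf1, whose 3′ end shares 109 nt with that of Rai1 on the opposite strand. Whether the counting used strand is not stated in the labels, so reads in that stretch cannot be told apart.

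The promoter windows of 3 of the genes are shown because their values parted in C57BL/6 replicate 1: Acly was low there, Srebf1 high and Fads2 near the middle of its other values. RefSeq windows from 250 bases before to 50 after a start site were matched for 6 of the 9 genes, in 8 windows, and Scd1, Scd2 and Fads1 had no entry. Capitals mark CCAAT, the box bound by the SREBP partner NF-Y, and GGGCGG, the GC box, read on both strands, so that ATTGG and CCGCCC are marked too; no marked matches overlap in these 3. The Srebf1 window is 1 of 3 listed for that gene. The sequences are given 5′ to 3′ on the strand of the gene, for GRCm38.p6.
Acly, chr11:100527951-100528250, minus strand: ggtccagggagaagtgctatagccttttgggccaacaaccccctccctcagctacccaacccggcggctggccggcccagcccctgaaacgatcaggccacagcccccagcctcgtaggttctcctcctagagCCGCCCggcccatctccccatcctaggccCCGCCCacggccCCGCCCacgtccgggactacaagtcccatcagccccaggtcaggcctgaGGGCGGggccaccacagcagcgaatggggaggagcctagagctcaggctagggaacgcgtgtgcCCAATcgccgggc
Fads2, chr19:10101454-10101753, minus strand: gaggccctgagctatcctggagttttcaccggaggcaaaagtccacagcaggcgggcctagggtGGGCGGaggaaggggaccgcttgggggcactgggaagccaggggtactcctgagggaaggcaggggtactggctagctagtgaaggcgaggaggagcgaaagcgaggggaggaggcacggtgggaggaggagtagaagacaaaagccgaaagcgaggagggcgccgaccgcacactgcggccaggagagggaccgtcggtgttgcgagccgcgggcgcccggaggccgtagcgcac
Srebf1, chr11:60210422-60210721, minus strand: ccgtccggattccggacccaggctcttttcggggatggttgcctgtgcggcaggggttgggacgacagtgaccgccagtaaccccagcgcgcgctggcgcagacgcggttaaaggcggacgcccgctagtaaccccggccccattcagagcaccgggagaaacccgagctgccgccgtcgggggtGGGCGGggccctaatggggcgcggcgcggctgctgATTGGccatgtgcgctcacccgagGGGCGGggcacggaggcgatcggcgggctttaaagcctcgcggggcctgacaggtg

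CCAAT was found in 4 of the 8 windows, and in 37.4% of the 32851 promoter windows of 300 bases in the table. These 4 belong to Acly, Fasn and Srebf1, 3 of the 6 genes. GGGCGG was found in 4 of the 8 windows, of Acly, Fads2 and Srebf1, and in 35.7% of all windows. The letters of the sterol regulatory element core, TCACNCCAC, were in none of the 8 windows and in 1.24% of all, and those of the E-box, CACGTG, in none of the 8 and in 7.15% of all. No match here says only that these letters are not in these windows.

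**Figure D1:**
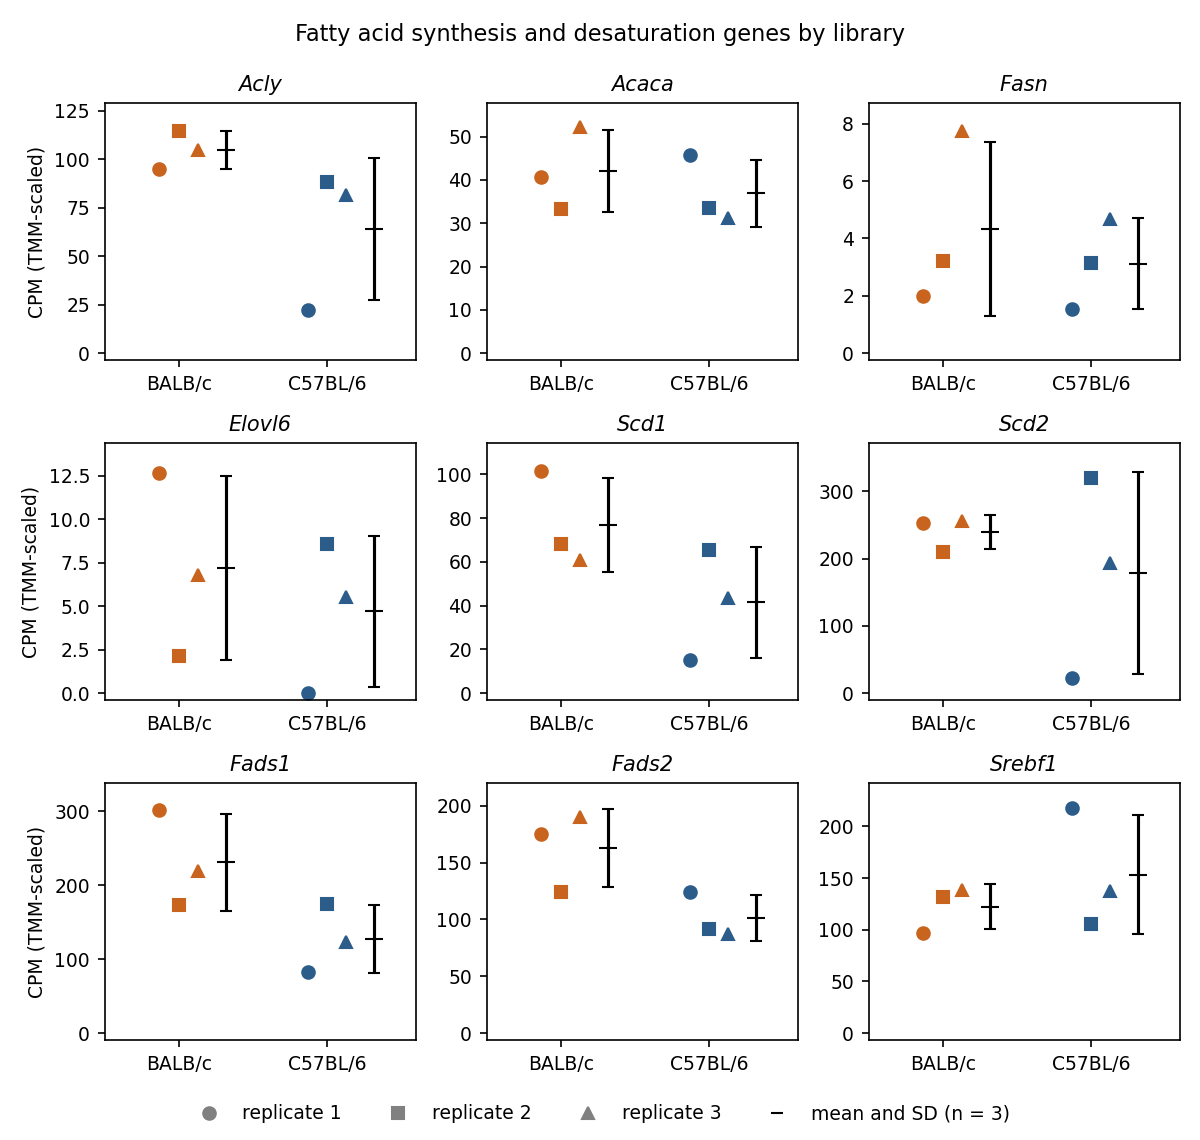
TMM-scaled CPM (linear axis) of the 9 genes in 3 BALB/c libraries (orange, left) and 3 C57BL/6 libraries (blue, right), with the symbol giving the replicate and the bar giving mean and SD. C57BL/6 replicate 1 (blue circle) is the lowest library for Acly, Fasn, Elovl6, Scd1, Scd2 and Fads1 and the highest for Srebf1, and in Acly alone the strains do not overlap.

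At the entry of the pathway, in CPM (counts relative to the library total after TMM scaling, edgeR's trimmed mean method), Acly had 94.7, 114.5 and 105 CPM in BALB/c replicates 1, 2 and 3, against 22.2, 88.3 and 81.4 CPM in C57BL/6 replicates 1, 2 and 3. It was the single member whose strains did not overlap (1 of 8, where 11.4% of all tested genes did not overlap and 5.15% lay higher in BALB/c in this way). Its log2 difference was 0.70 ± 0.48 (SE), and 0.30 ± 0.19 without C57BL/6 replicate 1. Acaca, the rate-limiting step, had 40.7, 33.3 and 52.3 CPM in BALB/c replicates 1, 2 and 3, against 45.8, 33.6 and 31.2 CPM in C57BL/6 replicates 1, 2 and 3. The strains overlapped almost wholly, with a log2 difference of 0.19 ± 0.31. It was 0.36 without C57BL/6 replicate 1, 0.33 without BALB/c replicate 2, 0.01 without BALB/c replicate 3 and 0.06 without C57BL/6 replicate 3. The counts of Acly over those of Acaca, consecutive enzymes of the route, were 2.33, 3.44 and 2.00 in the BALB/c libraries and 0.483, 2.63 and 2.61 in the C57BL/6 libraries. In 5 of the 6 libraries Acly thus had at least 2.00 counts for each of Acaca, and in C57BL/6 replicate 1 fewer counts than Acaca.

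Fasn, the enzyme that assembles the chain, had the lowest mean CPM of the group in both strains. By library, Elovl6 lay lower than Fasn in BALB/c replicates 2 and 3 and in C57BL/6 replicate 1. Fasn had 3, 9 and 8 counts in BALB/c replicates 1, 2 and 3, against 2, 4 and 23 counts in C57BL/6 replicates 1, 2 and 3. These were 2.00, 3.22 and 7.74 CPM against 1.53, 3.13 and 4.69 CPM. A floor of 3 counts corresponds to 0.612 to 2.90 CPM, and BALB/c replicate 1 and C57BL/6 replicate 1 did not exceed theirs. In the fit with no filter on low counts its log2 difference was 0.28 ± 0.71 (edgeR adjusted p = 0.967), smaller than its own standard error. Elovl6 had 12.7, 2.15 and 6.77 CPM in BALB/c replicates 1, 2 and 3, from 19, 6 and 7 counts, against 0, 8.60 and 5.51 CPM in C57BL/6 replicates 1, 2 and 3, from 0, 11 and 27 counts. The 0 counts of C57BL/6 replicate 1 allow up to 2.29 CPM, about the level of BALB/c replicate 2. Its log2 difference, 0.54 ± 1.03, was smaller than its own standard error and was 0.01 ± 0.78 without C57BL/6 replicate 1 and -0.22 without BALB/c replicate 1.

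Both stearoyl-CoA desaturases were read in all libraries, and Scd2 was the higher of the pair in each. Scd1, the form typical of liver and fat, had 101, 68.0 and 61.0 CPM in BALB/c replicates 1, 2 and 3, against 15.3, 65.7 and 43.5 CPM in C57BL/6 replicates 1, 2 and 3. The ranges met at a single library, C57BL/6 replicate 2, which lay between the lowest and the middle BALB/c values, and the log2 difference was 0.89 ± 0.51, or 0.50 ± 0.30 without C57BL/6 replicate 1. Scd2, the form known for wide expression outside the liver, had 252, 210.1 and 256 CPM in BALB/c replicates 1, 2 and 3, against 22.2, 320.4 and 193 CPM in C57BL/6 replicates 1, 2 and 3. The BALB/c libraries lay close together, and C57BL/6 held both the highest and the lowest library. Its log2 difference of 0.42 ± 0.75 turned to -0.10 ± 0.25 without C57BL/6 replicate 1, so the sign rests on that library. Scd1 over Scd2 counts were 0.402, 0.324 and 0.238 in BALB/c and 0.690, 0.205 and 0.225 in C57BL/6, with overlapping ranges.

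An annotated microRNA gene, Mir5114, lies on the same strand inside an exon of Scd2, and was looked at after its values were seen. It had 13, 31 and 23 counts in BALB/c replicates 1, 2 and 3, against 2, 4 and 16 counts in C57BL/6 replicates 1, 2 and 3, or 8.67, 11.1 and 22.3 CPM against 1.53, 3.13 and 3.26 CPM. All BALB/c libraries lay above all C57BL/6 libraries, and the log2 difference was 2.30 ± 0.59 (edgeR adjusted p = 0.592). Libraries of polyadenylated RNA cannot tell reads of Scd2 transcripts that fall on this stretch from reads of the microRNA precursor. In C57BL/6 replicate 2 Scd2 had its highest value, 320.4 CPM, and Mir5114 had 3.13 CPM.

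The front-end desaturases of polyunsaturated fatty acids had the smallest unadjusted p of the group. Fads2, which starts that pathway, had 175, 124 and 189.7 CPM in BALB/c replicates 1, 2 and 3, against 125, 91.4 and 87.3 CPM in C57BL/6 replicates 1, 2 and 3. The lowest BALB/c library and the highest C57BL/6 library, replicate 1, stood at nearly the same level, and the other libraries were apart. The log2 difference was 0.69 ± 0.27 (edgeR adjusted p = 0.954), and without C57BL/6 replicate 1 it was 0.85 ± 0.23 (edgeR adjusted p = 0.551). Fads1, which acts after it, had 301, 173 and 219 CPM in BALB/c replicates 1, 2 and 3, against 83.3, 174 and 123 CPM in C57BL/6 replicates 1, 2 and 3. C57BL/6 replicate 2 and BALB/c replicate 2 met, and the log2 difference was 0.86 ± 0.35, or 0.63 ± 0.28 without C57BL/6 replicate 1. Fads1 over Fads2 counts were 1.72, 1.39 and 1.15 in BALB/c and 0.669, 1.91 and 1.41 in C57BL/6, so the neighbouring genes did not keep a fixed ratio in C57BL/6 replicate 1.

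Srebf1, the regulator, was the single tested member with a log2 difference under 0. It had 97.4, 131 and 138 CPM in BALB/c replicates 1, 2 and 3, against 218, 106 and 137 CPM in C57BL/6 replicates 1, 2 and 3. C57BL/6 replicate 1 was the highest library and the other 5 lay between 97.4 and 138 CPM. The log2 difference was -0.33 ± 0.32, and -0.00 ± 0.24 without that library. Rai1, which overlaps its 3′ end, had 66.7, 49.0 and 49.4 CPM in BALB/c and 70.3, 62.5 and 67.5 CPM in C57BL/6. Its highest library was also C57BL/6 replicate 1, and whether Rai1 reads add to Srebf1 there was not tested.

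**Figure D2:**
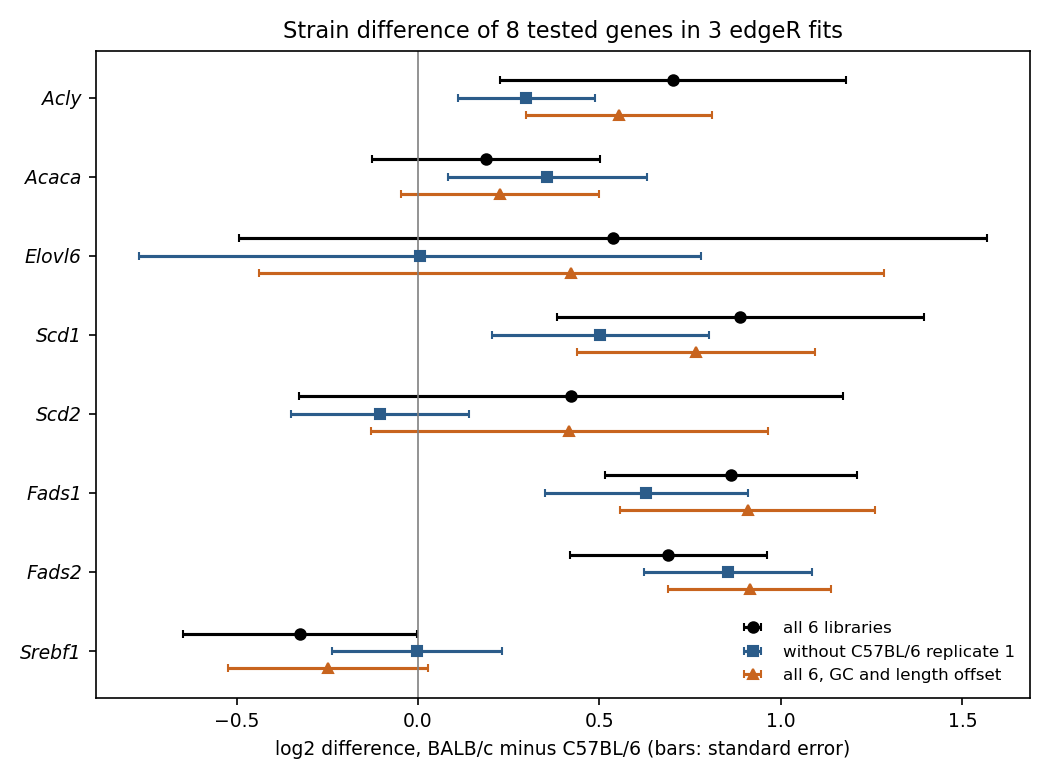
Log2 difference (BALB/c minus C57BL/6) of the 8 tested genes with its standard error, from edgeR with all 6 libraries (black), without C57BL/6 replicate 1 (blue) and with an offset for GC content and length (orange). Leaving out the library brought Scd2, Elovl6 and Srebf1 to -0.10, 0.01 and -0.00, while Fads2 stood at 0.69, 0.85 and 0.91 in the 3 fits.

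Reading at the 3′ end makes counts little dependent on transcript length, and the levels are set side by side on the CPM scale with limits. Whether the 3′ ends of different genes were read equally well was not tested. The C57BL/6 means include replicate 1, whose values shifted with GC content, as given below. In BALB/c the order was Scd2 at 239.6 ± 25.6, Fads1 at 231 ± 65.4, Fads2 at 163 ± 34.4, Srebf1 at 122 ± 21.9, Acly at 105 ± 9.91, Scd1 at 76.8 ± 21.6, Acaca at 42.1 ± 9.56, Elovl6 at 7.20 ± 5.28 and Fasn at 4.32 ± 3.02 CPM (SD, n = 3). In C57BL/6 it was Scd2 at 179 ± 149.7, Srebf1 at 154 ± 57.8, Fads1 at 127 ± 45.6, Fads2 at 101 ± 20.4, Acly at 64.0 ± 36.4, Scd1 at 41.5 ± 25.2, Acaca at 36.9 ± 7.84, Elovl6 at 4.70 ± 4.36 and Fasn at 3.12 ± 1.58 CPM (SD, n = 3). In BALB/c the ranges of neighbours in this order overlapped, except between Scd1 and Acaca and between Acaca and Elovl6, and in C57BL/6 they overlapped except between Acaca and Elovl6. On this scale the desaturases and Srebf1 stood above the synthase and the elongase in both strains, with Fasn at only 2 to 23 counts per library. Summed over the 9 genes, the level was 1078, 859 and 1035 CPM in BALB/c replicates 1, 2 and 3, against 532, 891 and 707 CPM in C57BL/6 replicates 1, 2 and 3, with C57BL/6 replicate 2 inside the BALB/c range.

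The genes divided into 2 sets by their value in C57BL/6 replicate 1. Relative to the mean log2 CPM of the other 5 libraries, Scd2 lay 10.6-fold lower there, Acly 4.20-fold, Scd1 4.10-fold and Fads1 2.26-fold. Elovl6, with 0 counts there, lay at least 3.16-fold lower, taken against the floor of 3 counts in that library. On the log2 scale Fads2 stood at -0.03, Acaca at 0.28 and Srebf1 at 0.85. The GC content of the last 500 nt of the transcripts was 39.2% for Scd2, 39.4% for Acly, 40.2% for Scd1, 40.4% for Elovl6, 47.4% for Fads1, 47.6% for Srebf1, 51.0% for Fads2 and 53.4% for Acaca. The low genes other than Fads1 all had at most 40.4% there.

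The values of the same library shifted with GC content over the whole table. Among 2223 tested genes with a GC content under 40% in that stretch, its median log2 CPM was -1.36 relative to the mean of the 6 libraries, and 0.17 to 0.42 in the other 5 libraries. Among 2808 genes with 50% or more it was 0.58, and -0.19 to -0.02 in the others. On this scale Scd2 and Acly, of the lowest band, stood at -2.83 and -1.72 in that library. Scd1 and Elovl6 fall in the band of 40% to 45%, whose median there was -0.52, and stood at -1.695 and -2.46. Fads1 and Srebf1 fall in the band of 45% to 50%, whose median there was 0.12, and stood at -0.98 and 0.70. Of all tested genes 4.70% lay as low as or lower than Scd2 there, 14.5% as low as Acly and 24.7% as low as Fads1. With an offset for GC content and transcript length, chosen after the values were seen, the log2 differences were 0.77 ± 0.33 for Scd1, 0.42 ± 0.55 for Scd2, 0.55 ± 0.26 for Acly, 0.91 ± 0.35 for Fads1 and 0.91 ± 0.23 for Fads2 (edgeR adjusted p = 0.398). All 8 kept their sign under the offset and 0 passed, where 29 of all 8752 tested genes did. At an unadjusted p under 0.05 edgeR took 2 of the 8 in that fit, beside 5.07% of all tested genes.

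**Figure D3:**
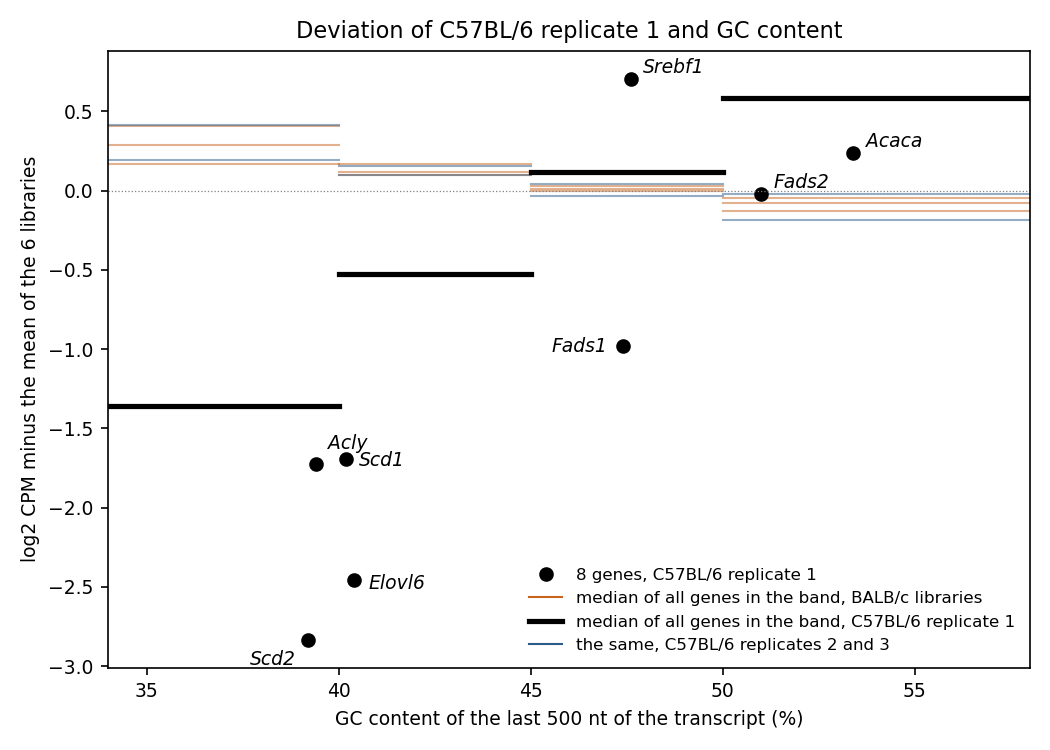
Log2 CPM of C57BL/6 replicate 1 relative to the mean of the 6 libraries (vertical axis) against the GC content of the last 500 nt of the transcript (horizontal axis, percent) for the 8 tested genes, with horizontal lines for the median of all tested genes in each band of GC content, thick black for C57BL/6 replicate 1 and thin for the other 5 libraries. Scd2, Acly, Scd1 and Elovl6 lie at the low end of both axes, Elovl6 placed by the prior count of 2 because it had 0 counts there, and Fads2 and Acaca at 51.0% and 53.4% lie near 0.

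Among genes outside the group, those closest to Scd2, its highest member, were taken by the root mean square distance of centred log2 CPM over the 6 libraries, from 4506 tested genes whose mean log2 CPM was 5 or more. They were Ccn2, a matricellular protein, at 0.11, Coa5 at 0.15, Pmpcb, a subunit of the mitochondrial processing peptidase, at 0.16, Mocs2, an enzyme of molybdopterin synthesis, at 0.16, and Cmpk1, a nucleotide kinase, at 0.16. None is an enzyme of lipid synthesis. The centred Scd2 profile was mainly its low value in C57BL/6 replicate 1, at -2.83 beside 0.24 to 0.97 in the other libraries. Closeness to Scd2 thus mostly reflects a like low value in that library, and shared regulation was not tested. Within the group the closest pair was Acaca and Fads2 at 0.26, followed by Acly and Scd1 at 0.33.

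Markers of other cells moved between these libraries as well. Mammary epithelial markers, with 13 of 13 genes listed in the table, summed to 1952, 11446 and 8993 CPM in BALB/c replicates 1, 2 and 3, against 18168, 3244 and 10236 CPM in C57BL/6 replicates 1, 2 and 3. C57BL/6 replicate 1, the library with the most, had the least Acly, Fasn, Elovl6, Scd1, Scd2 and Fads1 and the most Srebf1. BALB/c replicate 1, the library with the least, had the most Scd1, Fads1 and Elovl6 and the least Srebf1. The highest library was BALB/c replicate 2 for Acly, C57BL/6 replicate 2 for Scd2, and BALB/c replicate 3 for Acaca, Fasn and Fads2. Fibroblast markers, 9 of 10 in the table, summed to 10783, 4133 and 7700 CPM in BALB/c replicates 1, 2 and 3. In C57BL/6 replicates 1, 2 and 3 they summed to 2342, 11616 and 5484 CPM. As a sum they were thus read in every library, with collagen Col3a1 at 20.6 CPM and Vim at 801 CPM in C57BL/6 replicate 1. Of the same list, Fap had 0 counts and Pdgfra 6 counts in that library. The epithelial sum, over more genes, exceeded the fibroblast sum in BALB/c replicates 2 and 3 and in C57BL/6 replicates 1 and 3. Macrophage markers, 8 of 8 in the table, ran from 566 to 830 CPM in BALB/c and from 783 to 1456 CPM in C57BL/6. Smooth muscle and pericyte markers, 6 of 6 in the table, summed to 481 to 561 CPM in BALB/c and 904 to 1138 CPM in C57BL/6, so the strains did not overlap. Of these, Cnn1 had a log2 difference of -1.25 ± 0.25 and Actg2 of -1.42 ± 0.29 (edgeR adjusted p = 0.239 and 0.278), both contractile proteins. They had the largest differences of the 5 tested markers of this list. Acta2 had -0.43 ± 0.60, Myh11 -0.76 ± 0.76 and Mcam 0.07 ± 0.47, each with overlapping strains. Endothelial markers, 4 of 5 in the table, summed to 25.1 to 58.1 CPM in BALB/c and 36.7 to 47.4 CPM in C57BL/6. Adipocyte markers, 5 of 12 in the table, summed to 64.0 to 85.2 CPM in BALB/c and 68.0 to 84.5 CPM in C57BL/6, and the defining genes Adipoq, Plin1, Lep and Cidec were not among the genes analysed. The part of these cells in the levels was not tested, and in bulk RNA fewer cells of a type and less RNA per cell cannot be told apart. A further fit left out the libraries lowest in epithelial counts, BALB/c replicate 1 and C57BL/6 replicate 2. Its log2 differences were 1.10 for Scd1, 1.09 for Scd2, 1.05 for Acly, 0.91 for Fads1 and 0.56 for Fads2. Those of Fasn, Elovl6, Acaca and Srebf1 were 0.60, 0.32, 0.14 and -0.41. That fit kept C57BL/6 replicate 1, and with only that library left out Scd2 had -0.10 and Acly 0.30. In edgeR 0 of the 9 genes passed the threshold, and 0 of all 9467 tested genes did. At an unadjusted p under 0.05 edgeR took 1 of the 9, beside 3.25% of all tested genes.

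The neighbouring steps of lipid metabolism, in 10 lists with 124 genes, 93 of them tested, gave no call either. edgeR, DESeq2, limma-voom and limma-voom with quality weights each called 0 of the 93. With 1 library left out, edgeR had 0 to 7 at an unadjusted p under 0.05. It had 0 without BALB/c replicate 2 and 7 without C57BL/6 replicate 1, beside 2.28% and 5.01% of all tested genes. With all libraries edgeR had 4 at an unadjusted p under 0.05, beside the 3.86% of all genes. These 4 were Dgat1, which completes triacylglycerol, at -1.17 ± 0.42 on the log2 scale, Lpin3, a phosphatidate phosphatase, at -0.77 ± 0.27, Nsdhl, of cholesterol synthesis, at 1.27 ± 0.50, and Usf1, a transcription factor of lipogenic promoters, at 0.77 ± 0.33. They were picked for their p and fall outside the rule for named genes.

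The list medians moved with single libraries, and the lowest and highest value with 1 library left out follow each. Cholesterol synthesis had 13 of 17 genes above 0 with a median log2 difference of 0.37 (0.21 without BALB/c replicate 3 to 0.42 without BALB/c replicate 1, and 0.17 with no filter on low counts), and Fdps, which makes farnesyl diphosphate, had 0.40 ± 0.26. Acyl-CoA synthetases, which activate free fatty acids, had 4 of 7 above 0 with a median of 0.43 (0.06 without C57BL/6 replicate 1 to 0.45 without BALB/c replicate 3). Their examples Acsl5 and Acsbg1 had 0.90 ± 0.79 and -0.45 ± 0.28. The supply of carbon and NADPH had 3 of 8 above 0 with a median of -0.06 (-0.14 without BALB/c replicate 2 to 0.07 without BALB/c replicate 1), and Pgd, of the pentose phosphate route, and Mdh1, malate dehydrogenase, had -0.51 ± 0.40 and 0.48 ± 0.35. Elongation had 4 of 8 above 0 with a median of 0.16 (-0.24 without BALB/c replicate 2 to 0.18 without BALB/c replicate 3), and Tecr, the last reductase of the cycle, and Elovl1 had -0.54 ± 0.34 and -0.30 ± 0.29. Other desaturases and their electron donors had 3 of 5 above 0 with a median of 0.08 (-0.28 without BALB/c replicate 2 to 0.23 without BALB/c replicate 3), and Cyb5r3, a cytochrome b5 reductase, and Degs1, a ceramide desaturase, had -0.51 ± 0.29 and 0.22 ± 0.29.

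SREBP processing and lipogenic regulators had 4 of 11 above 0 with a median of -0.09 (-0.33 without BALB/c replicate 3 to 0.00 without C57BL/6 replicate 1), and Usf2 and Nr1h2, the liver X receptor beta, had -0.33 ± 0.30 and -0.54 ± 0.36. Scap, which escorts SREBP to its proteases and was chosen outside the rule for named genes after its values were seen, was at 125, 106 and 123 CPM in BALB/c and 124, 93.8 and 123 CPM in C57BL/6. Regulators of carboxylase and synthase had 3 of 5 above 0 with a median of 0.08 (-0.30 without BALB/c replicate 1 to 0.11 without C57BL/6 replicate 2), with -0.31 ± 0.33 for Prkag1, a subunit of AMP-activated kinase, and 0.19 ± 0.72 for Trib3. Glycerolipid synthesis had 2 of 10 above 0 with a median of -0.17 (-0.38 without C57BL/6 replicate 3 to -0.08 without C57BL/6 replicate 1), with -0.19 ± 0.23 for Gpat4 and -0.13 ± 0.46 for Agpat1, both acyltransferases. Fatty acid oxidation had 9 of 15 above 0 with a median of 0.07 (-0.04 without C57BL/6 replicate 2 to 0.10 without C57BL/6 replicate 3), with -0.10 ± 0.31 for Etfb and 0.09 ± 0.33 for Acadl. Lipid droplet and lipolysis genes had 2 of 7 above 0 with a median of -0.74 (-0.85 without C57BL/6 replicate 3 to -0.26 without C57BL/6 replicate 1), and the droplet coat genes Plin2 and Plin3 had 0.34 ± 0.24 and -0.28 ± 0.24. With the stricter filter, at a mean of 50 counts, the droplet list had a median of -0.02. The median of all tested genes was 0.01.

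**Figure D4:**
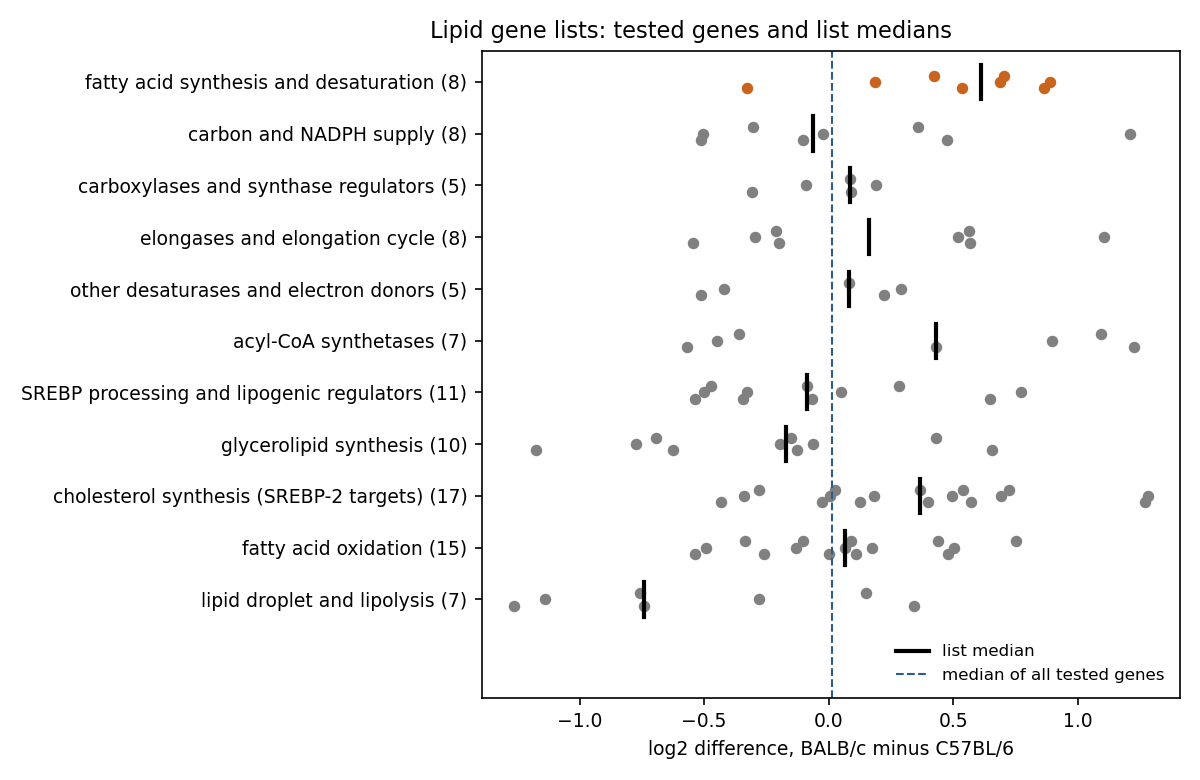
Log2 difference (BALB/c minus C57BL/6) of each tested gene, 1 point per gene, in the fatty acid synthesis and desaturation group (orange) and 10 other lipid lists (grey), with the number tested in brackets, the list median as a black bar and the median of all tested genes as a dashed line. The group of 8 has its median at 0.61, and no point on the plot passed the adjusted threshold.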

How the data were processed

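Per the labels, RNA of primary fibroblasts of 2 strains, 3 libraries each, was sequenced from the 3′ end. The deposited values are raw counts by gene symbol for all libraries. STAR 2.4.2a, HTSeq, bcl2fastq and mm10 are named per the submitters' processing notes, without settings, annotation, or any word on strand and molecular identifiers. Each of the 12023 genes reaches at least 6 counts in 1 library. Columns were matched to samples by library name. Nothing beyond the label says that replicates were separate animals, so p-values measure the spread between these libraries. Alignment to a C57BL/6 genome can lose reads that carry BALB/c alleles.

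The test was the quasi-likelihood test of edgeR 4.0.16 under R 4.3.3 (filterByExpr by strain, TMM scaling, robust quasi-likelihood fit with strain as the only term, two-sided, Benjamini-Hochberg over 8752 genes). CPM are per TMM-scaled total of the tested genes, log2 CPM used a prior count of 2, and a standard error is the log2 difference over the square root of F. Alternatives used DESeq2 1.42.0 and limma 3.58.1. The fit was tested on simulated data whose set differences were larger than those fitted for the group, so differences of that smaller size were not covered. Copies were searched with BLAST+ 2.17.0. GC content came from 1 GENCODE vM21 transcript per gene, for 98.8% of tested genes, and its offset from a loess curve of span 0.5. The genes and lists were chosen with earlier results of these data known. Named genes were all 9 of the group and from each other list those called or else the 2 highest in mean log2 CPM, and others are marked; 1 gene named by this rule is not reported here. Floors of 3 counts cover counting error only.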

Additional observations from a re-analysis of the deposited data

How the results depend on the processing

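No alternative called any of the group or of the other lipid lists, out of 17 tried (16 planned and the GC and length offset, chosen after seeing the data); Elovl6 was left out by the filter at a mean of 50 counts. Scd1, Acly, Acaca, Fads1 and Fads2 stayed above 0 and Srebf1 below 0 in all of theirs. Fads2 ran from 0.56 to 0.91, Fads1 from 0.62 to 1.16, Scd1 from 0.50 to 1.34, Acly from 0.30 to 1.05, Acaca from 0.01 to 0.40 and Srebf1 from -0.51 to -0.00. With 1 library left out Scd2 ran from -0.10 (without C57BL/6 replicate 1) to 1.12 and Elovl6 from -0.22 (without BALB/c replicate 1) to 1.06, and Elovl6 was -0.24 with library quality weights, and the cause was not tested. The count of all genes called, 18 in the main fit, was 11 with library totals alone, 71 with DESeq2 (25 higher and 46 lower), 3 with limma-voom, 57 with quality weights, 29 with the offset, 0 without the libraries low in epithelial counts, and 0 to 25 when 1 library was left out. The replicate block gave 0 calls and 0 of the 8 at an unadjusted p under 0.05, beside 1.81% of all tested genes. The deviations of same-numbered libraries from their strain means correlated at -0.42, -0.40 and -0.08. With 3 libraries per strain these deviations depend on each other, so they cannot tell whether same-numbered libraries shared a batch. The 8 genes had standard errors of 0.27 to 1.03. Differences above their standard error also went uncalled, such as Scd1 at 0.89 ± 0.51 and Fads2 at 0.69 ± 0.27 (edgeR adjusted p = 0.954 for both). The lack of a call thus does not show that the strains were equal.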
